A study of Homo sapiens with 8 samples.

Results

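The NF-kB subunits and feedback inhibitors described here are 10 human genes, taken by symbol from a list and matched to the 58302 genes of the count table, and all 10 were found and passed the filter on low counts. They were measured by RNA sequencing in tumours that T24 cells formed in mice. T24 is an established human bladder cancer line. The DDR1 tumours came from T24 cells with enforced expression of DDR1, a receptor tyrosine kinase activated by collagen (4 libraries), and the control tumours from control T24 cells (4 libraries). Both groups share the line and the host; tumour age, mouse strain, vector and promoter are not given in the labels. Nor is it stated whether each library is its own animal, and the p-values therefore cover variation among these 8 libraries, some of which may be technical. DDR1 replicates 2, 3 and 4 share a title prefix, as do control replicates 3 and 4. All 4 DDR1 titles name lane 8, control replicates 1 and 2 name lane 7 and control replicates 3 and 4 name no lane, so lane and group cannot be told apart.

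NF-kB is a family of transcription factors that act as pairs of subunits. In resting cells inhibitor proteins of the I-kappa-B family hold the pairs in the cytoplasm. Cytokine and toll-like receptors activate kinases that mark the inhibitor for destruction, and the freed pairs then switch on inflammatory genes, among them several of their own subunits and inhibitors, which gives the pathway a feedback loop. A slower branch, driven by receptors such as CD40 and LTBR, processes the NFKB2 protein and yields pairs with RELB. The 5 subunit genes are RELA, which encodes p65, RELB, REL, NFKB1, which encodes the p105 precursor of p50, and NFKB2, which encodes the p100 precursor of p52. Among the other 5, NFKBIE encodes I-kappa-B epsilon, NFKBIZ encodes the nuclear I-kappa-B zeta, and TNFAIP3 encodes A20, an enzyme that edits ubiquitin and shuts off signalling. BIRC3 encodes the ubiquitin ligase cIAP2, which acts at tumour necrosis factor receptors. TNFAIP2 was named for its induction by tumour necrosis factor and is a known target. BIRC3 and TNFAIP2 are thus not inhibitors of NF-kB in the strict sense.

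Short stretches of sequence near the gene starts are shown first, because the feedback loop is known to run through NF-kB sites in such regions. The motif searched was GGG, any 2 bases and TTTCC, a common form of the NF-kB site, on both strands of windows from 250 bases before to 50 bases after each RefSeq gene start on GRCh38.p14. RefSeq windows were held for 8 members, and RELB and NFKBIE had none in the table used. The motif was found in 6 of these 8 members (REL, NFKB1, NFKB2, NFKBIZ, TNFAIP3 and BIRC3) and in 7 of their 13 windows, since a gene with several starts has several windows. Of all 35116 full windows in the table, 1.91% hold it. It was not found in the windows of RELA and TNFAIP2, which says only that these letters are not there. The looser motif GGG, any 5 bases and CC, which contains every match of the first, was present in 58.7% of all windows and so sets few genes apart. NFKB2 also had a start further upstream whose window held no match. For NFKB2, upstream and downstream therefore name only its starts with a match. The 30 bases around each match, written 5′ to 3′ along the gene's strand with the match in capitals, were as follows.
REL, chr2:60881518-60881547, plus strand: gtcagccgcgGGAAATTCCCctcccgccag
NFKB1, chr4:102501300-102501329, plus strand: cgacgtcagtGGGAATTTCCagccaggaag
NFKB2, upstream start, chr10:102394490-102394519, plus strand: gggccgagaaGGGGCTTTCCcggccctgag
NFKB2, downstream start, chr10:102395674-102395703, plus strand: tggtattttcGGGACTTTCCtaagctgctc
NFKBIZ, chr3:101827757-101827786, plus strand: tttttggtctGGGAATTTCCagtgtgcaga
TNFAIP3, chr6:137867188-137867217, plus strand: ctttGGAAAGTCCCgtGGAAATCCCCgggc
BIRC3, chr11:102317275-102317304, plus strand: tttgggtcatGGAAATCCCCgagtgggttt

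Counted from the RefSeq start, the matches began 46 bases before it in REL, 49 in NFKB1, 223 in NFKBIZ and 199 in BIRC3. They began 67 and 55 bases before it in TNFAIP3, and 78 and 21 bases before the NFKB2 starts that had a match. These RefSeq starts are not always the first base of the gene in GENCODE 29. There, all 10 bases of the REL match, all 20 of the TNFAIP3 matches and all 10 of the match at the upstream NFKB2 start lay inside annotated exons of the same gene, as did 1 base of the match at the downstream NFKB2 start. The matches of NFKB1, NFKBIZ and BIRC3 had 0 bases in exons. Those of REL, TNFAIP3 and BIRC3 lay on the opposite strand, so they read as GGAAA, any 2 bases and CCC above. For BIRC3, the member with the largest difference below, the 216 bases upstream of the first GENCODE exon (chr11:102317234-102317449, plus strand) are given in full with the same match in capitals.
BIRC3 upstream: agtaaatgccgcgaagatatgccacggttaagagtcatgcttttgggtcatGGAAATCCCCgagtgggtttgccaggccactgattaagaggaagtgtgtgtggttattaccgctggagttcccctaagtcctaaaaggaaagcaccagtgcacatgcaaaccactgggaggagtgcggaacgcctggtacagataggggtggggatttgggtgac

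Libraries held 20789503 to 32271031 expected counts in the DDR1 group and 13716286 to 22736674 in the controls. The smallest count behind any member was 135 expected counts, for NFKBIE, where counting error alone is 8.6%. The targeted gene DDR1 lay at 159, 343, 427 and 810 CPM (counts relative to the TMM-scaled library size) in DDR1 replicates 1 to 4, against 110 to 210 CPM in the controls. Its log2 fold change was 1.52 ± 0.43 (SE; edgeR unadjusted p = 0.00612, adjusted p = 0.9998), 1.79 without DDR1 replicate 1 and 1.05 without DDR1 replicate 4. Permuting the libraries exactly, two-sided, gave p = 0.0571. The library labelled DDR1 replicate 1, at 159 CPM, lay inside the control range, and results are also given without it. The epithelial keratin KRT5 held 1611 to 4013 CPM in DDR1 libraries and 707 to 2718 CPM in controls, whereas UPK1A, UPK1B, UPK2 and UPK3A, the uroplakins of differentiated urothelium, averaged under 1 CPM. Of 16 leukocyte markers, 12 averaged under 1 CPM, and PTPRC, the common leukocyte antigen CD45, lay between 0 and 0.167 CPM over the 8 libraries. The summed leukocyte list ran from 50.5 to 270 CPM in DDR1 libraries and from 22.2 to 151 CPM in controls. Within it S100A9, which epithelial cells can also make, held 0.75 to 171 CPM in DDR1 libraries and 3.05 to 93.6 CPM in controls. CD68 held 18.1 to 46.3 CPM in DDR1 libraries and 11.9 to 37.0 CPM in controls (log2 fold change 0.66, SE 0.42, edgeR unadjusted p = 0.147). All 5 tested genes of this list had a log2 fold change above 0, where 50.5% of all tested genes were lower. Of these 5, 0 had an unadjusted p under 0.05. The summed endothelial list ran from 9.51 to 77.0 CPM in DDR1 libraries and 8.74 to 56.9 CPM in controls, and the fibroblast list from 11.1 to 74.9 CPM in DDR1 libraries and 19.8 to 82.2 CPM in controls. Host cells in these tumours are mouse cells, while reads were assigned to the human build GRCh38. Whether mouse reads were removed is not given, so these lists cannot measure host cells. The part of host cells in the members' levels was not tested. In a bulk sample, fewer cells of a type and less RNA per cell cannot be told apart.

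Among the 10 members, 7 were lower and 3 higher in DDR1 tumours, and the differences were uneven: RELB, NFKBIE, TNFAIP3 and BIRC3 stood at 0.38 to 0.54 times the control level, NFKB1 and NFKB2 at 0.73 and 0.70 times, REL at 0.86 times, and RELA at 1.01 times. NFKBIZ and TNFAIP2 stood at 1.16 and 1.22 times. No member passed over all genes. With edgeR's quasi-likelihood test on 18973 genes, 0 genes (0.00%) had an adjusted p under 0.05, and each member's adjusted p was 0.9998. DESeq2 called 16 genes (0.0843%), none of them a member. At an unadjusted p under 0.05, 5 of 10 members were lower (RELB, NFKB1, NFKBIE, TNFAIP3 and BIRC3) and 0 higher, where 2.24% of all tested genes were lower, 1.93% higher and 4.17% either. The median log2 fold change of the members was -0.49, beside -0.003 for all genes tested. The members were chosen with earlier results of these data known, so their count and median are no independent evidence. Leaving out the library labelled DDR1 replicate 1 gave a members' median of -0.39, with 3 members, RELB, NFKBIE and BIRC3, at an unadjusted edgeR p under 0.05. In that fit RELB stood at -0.83, NFKBIE at -1.23, BIRC3 at -1.5, NFKB1 at -0.43 and TNFAIP3 at -0.72. The share of all genes that were lower at that threshold was 2.53% in the same fit. The count was also 3 without control replicate 1, with 1.56% of all genes, and it was 6 without control replicate 2, with 3.19% of all genes.

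**Figure D1:**
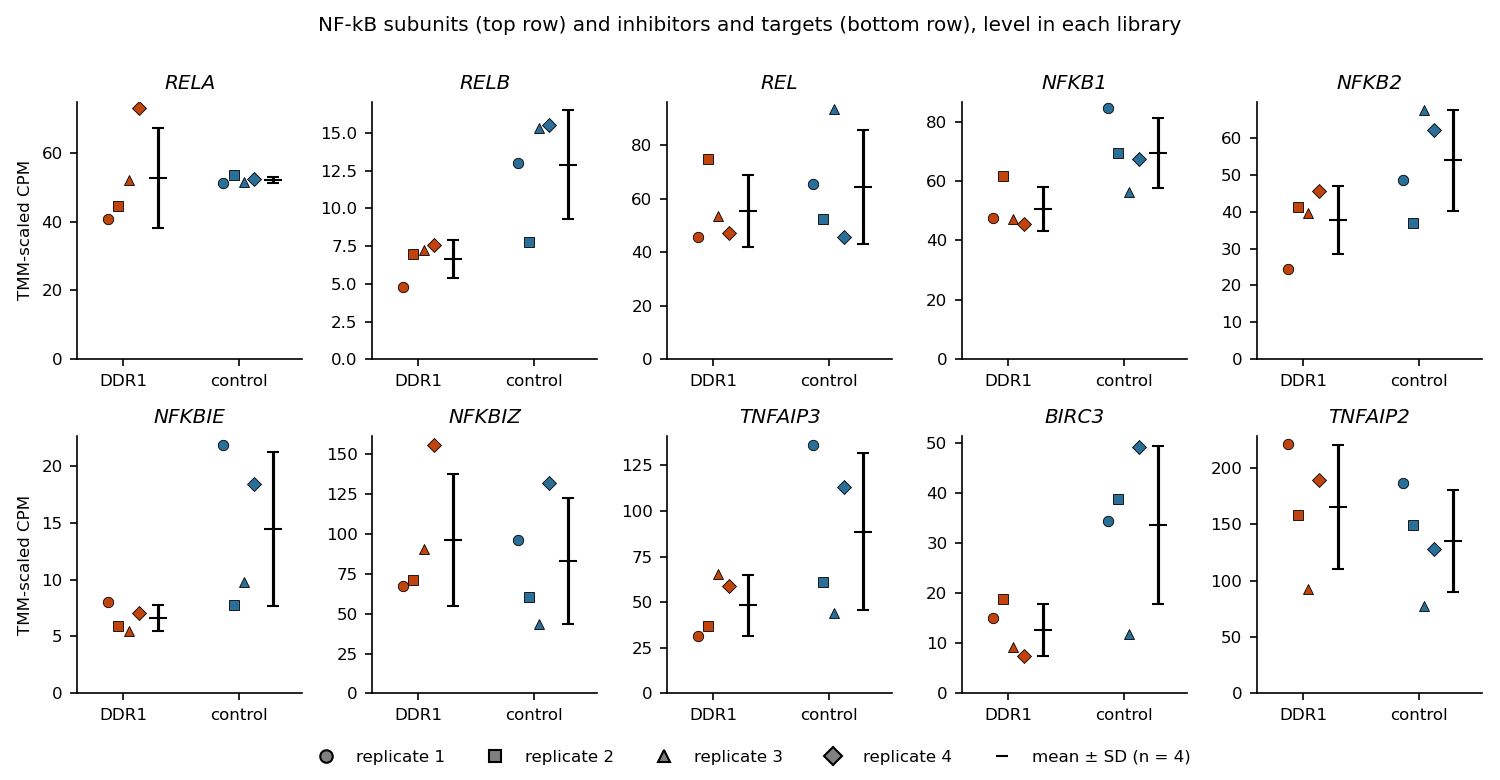
Level of each member in each library, as TMM-scaled CPM on axes that start at 0, with DDR1 libraries left of controls; marker shapes give the replicate, and bars the mean ± SD over 4 libraries. RELB is the 1 member whose groups do not overlap, and RELA spans 40.7 to 73.2 CPM in DDR1 libraries and 51.3 to 53.5 CPM in controls.

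RELA (ENSG00000173039, GRCh38 chromosome 11, 65653596 to 65663094, minus strand), the main activating subunit, held 40.7, 44.6, 52.2 and 73.2 CPM in DDR1 replicates 1 to 4, against 51.3, 53.5, 51.6 and 52.3 CPM in control replicates 1 to 4. The means were 52.7 ± 14.5 CPM in DDR1 libraries and 52.2 ± 0.958 CPM in controls (SD, n = 4 each), and the DDR1 libraries spread on both sides of the narrow control range. The log2 fold change was 0.01 ± 0.19 (SE; edgeR unadjusted p = 0.947), and -0.18 without DDR1 replicate 4. The coefficient of variation was 27.5% in DDR1 libraries and 1.8% in controls.

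RELB (ENSG00000104856, chromosome 19, 45001430 to 45038198, plus strand), the subunit of the slower branch, held 4.77, 6.96, 7.24 and 7.60 CPM in DDR1 libraries, against 13.0, 7.77, 15.3 and 15.5 CPM in controls. All DDR1 libraries lay below all controls, although control replicate 2 lay only just above the highest of them. Groups that do not overlap, with DDR1 lower, were found for 1.13% of all genes tested, and in either direction for 2.40%. The log2 fold change was -0.96 ± 0.27 (SE; edgeR unadjusted p = 0.00617, adjusted p = 0.9998). Permuting the libraries exactly, two-sided, gave p = 0.0286, the smallest that 70 orderings allow. For the other members with an unadjusted edgeR p under 0.05, this permutation test gave larger values. These were 0.0571 for NFKB1, 0.0571 for NFKBIE, 0.0857 for BIRC3 and 0.143 for TNFAIP3. With 1 library left out the log2 fold change of RELB ran from -1.13 to -0.83. Without the controls that name no lane it was -0.64 with an unadjusted edgeR p of 0.0811. RN7SL1, an abundant RNA polymerase III transcript whose share can reflect library preparation, held 36874, 27226, 25360 and 29947 CPM in DDR1 libraries, against 61015, 24822, 51641 and 86607 CPM in controls. As for RELB, control replicate 2 was the lowest control and the other controls lay above every DDR1 library (log2 fold change -0.91, SE 0.36, edgeR unadjusted p = 0.0317), and its part in the result was not tested. Of 8 tested RNA polymerase III transcripts, 5 were lower and 3 higher in DDR1 libraries. With library sizes taken from protein-coding genes alone, RELB stood at -0.94. That changes the scaling only and does not test library preparation.

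NFKB2 (ENSG00000077150, chromosome 10, 102394110 to 102402529, plus strand), whose protein is the usual partner of RELB, held 24.5, 41.2, 39.7 and 45.6 CPM in DDR1 libraries, against 48.7, 37.0, 67.7 and 62.2 CPM in controls. The groups overlapped through control replicate 2. The log2 fold change was -0.51 ± 0.25 (SE; edgeR unadjusted p = 0.0649), and it was -0.18 without the controls that name no lane and -0.75 without the lane 7 controls. RELB and NFKB2 followed each other closely from library to library: across the 8 libraries Pearson's r of log2 CPM was 0.93 and Spearman's rho 0.81, the highest r of the 45 pairs of members. After subtracting the group means r was 0.95, and over the 6 libraries left without the 2 farthest in RELB it was 0.84. These are descriptions, since libraries share title prefixes and scaling. The log2 ratio of RELB to NFKB2, looked at after the values were seen and therefore not tested, was -2.48 ± 0.11 in DDR1 libraries and -2.07 ± 0.15 in controls (SD, n = 4 each), with no overlap between groups. RELB alone also had no overlap, and the share of gene pairs whose ratio does not overlap was not computed.

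NFKB1 (ENSG00000109320, chromosome 4, 102501329 to 102617302, plus strand), the source of p50, held 47.7, 61.6, 47.3 and 45.4 CPM in DDR1 libraries, against 84.7, 69.3, 56.4 and 67.4 CPM in controls. DDR1 replicate 2 overlapped with control replicate 3, and the other DDR1 libraries lay below every control. The log2 fold change, -0.46 ± 0.17 (SE; edgeR unadjusted p = 0.0242), ran from -0.57 to -0.34 with 1 library left out, and was -0.26 without the lane 7 controls (unadjusted p = 0.238). REL (ENSG00000162924, chromosome 2, 60881521 to 60931610, plus strand), the c-Rel subunit best known from lymphocytes, held 45.7, 74.8, 53.3 and 47.1 CPM in DDR1 libraries, against 65.4, 52.2, 93.6 and 45.7 CPM in controls. These ranges overlapped widely, with a log2 fold change of -0.22 ± 0.25 (SE; edgeR unadjusted p = 0.412). REL shares exon bases with a non-coding gene on the same strand, AC010733.2, which held 2.74 to 15.7 CPM, so part of its reads may be split.

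NFKBIE (ENSG00000146232, chromosome 6, 44258166 to 44265788, minus strand) held 8.05, 5.88, 5.46 and 7.10 CPM in DDR1 libraries, against 21.8, 7.73, 9.77 and 18.4 CPM in controls. The controls formed a pair near 20 CPM, replicates 1 and 4, and a pair under 10 CPM, of which replicate 2 lay below DDR1 replicate 1. The log2 fold change was -1.12 ± 0.34 (SE; edgeR unadjusted p = 0.00921), with a range of -1.33 to -0.84 on leaving out 1 library. After summing libraries by title prefix it was -0.99 with an unadjusted edgeR p of 0.0698. TNFAIP3 (ENSG00000118503, chromosome 6, 137867188 to 137883312, plus strand) held 31.6, 36.8, 65.7 and 58.8 CPM in DDR1 libraries, against 136, 61.1, 44.3 and 113 CPM in controls. Control replicates 1 and 4 were again the high ones, and the remaining controls lay within the DDR1 range. Its log2 fold change was -0.88 ± 0.38 (SE; edgeR unadjusted p = 0.0431), and -0.58 with an unadjusted p of 0.158 without control replicate 1. An antisense gene with shared exon bases, AL357060.1, held at most 2.94 CPM.

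BIRC3 (ENSG00000023445, chromosome 11, 102317450 to 102339403, plus strand) held 15.0, 18.8, 9.19 and 7.50 CPM in DDR1 libraries, against 34.5, 38.7, 11.8 and 49.2 CPM in controls. Control replicate 3 lay inside the DDR1 range, and the other controls lay above it. The log2 fold change was -1.41 ± 0.44 (SE; edgeR unadjusted p = 0.00962), and it ran from -1.69 to -1.17 with 1 library left out. Without the lane 7 controls it was -1.25 with an unadjusted p of 0.0690. BIRC2, which encodes the related ligase cIAP1, held 90.4 ± 15.5 CPM in DDR1 libraries and 101 ± 22.1 CPM in controls, a log2 fold change of -0.16 (SE 0.20). NFKB1 and BIRC3 were the pair of members with the second highest r over the 8 libraries, 0.86 (rho 0.88).

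NFKBIZ (ENSG00000144802, chromosome 3, 101827991 to 101861022, plus strand) and TNFAIP2 (ENSG00000185215, chromosome 14, 103123442 to 103137439, plus strand) did not share the lower level. NFKBIZ held 67.3, 71, 90.7 and 156 CPM in DDR1 libraries, against 96.4, 60.2, 43.8 and 132 CPM in controls, with a log2 fold change of 0.21 ± 0.38 (SE; edgeR unadjusted p = 0.585). Its direction depended on 1 library, since it was -0.11 without DDR1 replicate 4. TNFAIP2 held 221, 158, 92.2 and 189 CPM in DDR1 libraries, against 186, 149, 77.5 and 128 CPM in controls, with a log2 fold change of 0.29 ± 0.32 (SE; edgeR unadjusted p = 0.382). It was -0.02 without the controls that name no lane. TNFAIP2 ran against RELB, REL and NFKB2 across the 8 libraries (r = -0.50, -0.51 and -0.61).

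**Figure D2:**
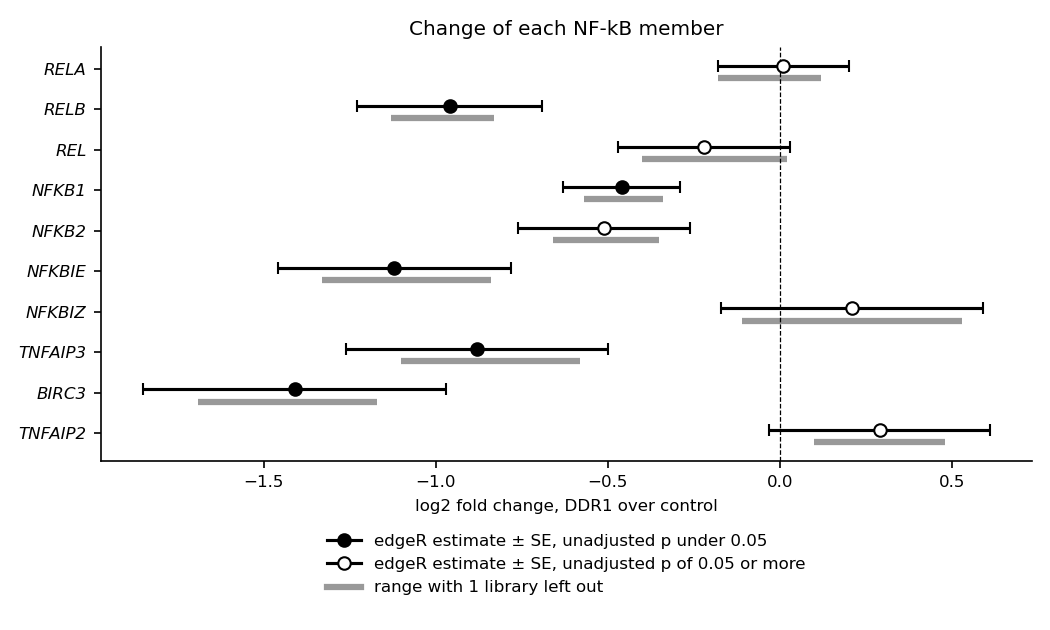
Log2 fold change of each member, DDR1 over control, from edgeR with its standard error (points and bars) and the range with 1 library left out (grey bars); filled points have an unadjusted p under 0.05 and none passes after adjustment. BIRC3, NFKBIE, RELB and TNFAIP3 lie between -1.41 and -0.88, and RELA lies at 0.01.

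Pairs of members did not move as 1 block. Over the 8 libraries the 45 pairs had a median r of 0.25, 12 pairs were above 0.5 and 12 were below 0, and the lowest was REL with NFKBIZ at -0.64. The median was 0.23 after subtracting group means. Control replicate 1 was the highest of the 8 libraries for 3 members (NFKB1, NFKBIE and TNFAIP3), and the library labelled DDR1 replicate 1 was the lowest for 5 (RELA, RELB, REL, NFKB2 and TNFAIP3). Control replicates 1 and 4 were among the upper 4 of the 8 libraries for 9 and 8 members, control replicates 2 and 3 for 5 and 4. DDR1 replicates 2, 3 and 4 were there for 4 members each, and DDR1 replicate 1 for 2.

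The genes outside the group with patterns most like RELA and RELB were taken from 11884 tested genes of at least 5 CPM by Pearson's r of log2 CPM over 8 libraries. For RELA these included ZFP36L1 (r = 0.939, rho 0.79) and PROSER3 (r = 0.938, rho 0.69). RELA, ZFP36L1 and PROSER3 were all highest in DDR1 replicate 4, at 73.2, 119 and 23.5 CPM. The other libraries reached at most 53.5, 95.6 and 10.5 CPM, and r without DDR1 replicate 4 was not computed. For RELB they were AFAP1 (r = 0.963, rho 0.88), SLC41A1 (r = 0.956, rho 0.93) and EVC (r = 0.950, rho 0.98). These are descriptions over 8 libraries.

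Within a library, the ratio of a member to RELA cancels the library scaling. Only the prior count of 2 in log2 CPM keeps a small dependence on it. Of the 9 ratios, 7 averaged lower and 2 higher in DDR1 libraries, and 0 had an unadjusted p under 0.05 in the exact two-sided permutation test, for which 0.0286 is the smallest value. RELB lay at a log2 ratio of -3.07, -2.67, -2.83 and -3.25 in DDR1 libraries, against -1.98, -2.77, -1.75 and -1.74 in controls, a difference of -0.90 (exact permutation p = 0.0571). Control replicate 2 was the 1 control inside the DDR1 range, and without it the difference was -1.13 (exact permutation p = 0.0286). That p is the smallest that the remaining 35 orderings allow. It follows from removing the only overlapping control, so it adds no support. Without the library labelled DDR1 replicate 1 the difference in the RELB ratio was -0.86 (exact permutation p = 0.0857). The NFKBIE ratio averaged -2.95 ± 0.46 in DDR1 libraries and -1.98 ± 0.73 in controls (SD, n = 4 each, exact permutation p = 0.0857). The BIRC3 ratio averaged -2.11 ± 0.95 in DDR1 libraries and -0.81 ± 0.90 in controls (SD, n = 4 each, exact permutation p = 0.114). The other 6 ratios differed by -0.78 (TNFAIP3) to 0.31 (TNFAIP2), with exact permutation p-values of 0.114 to 0.686.

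**Figure D3:**
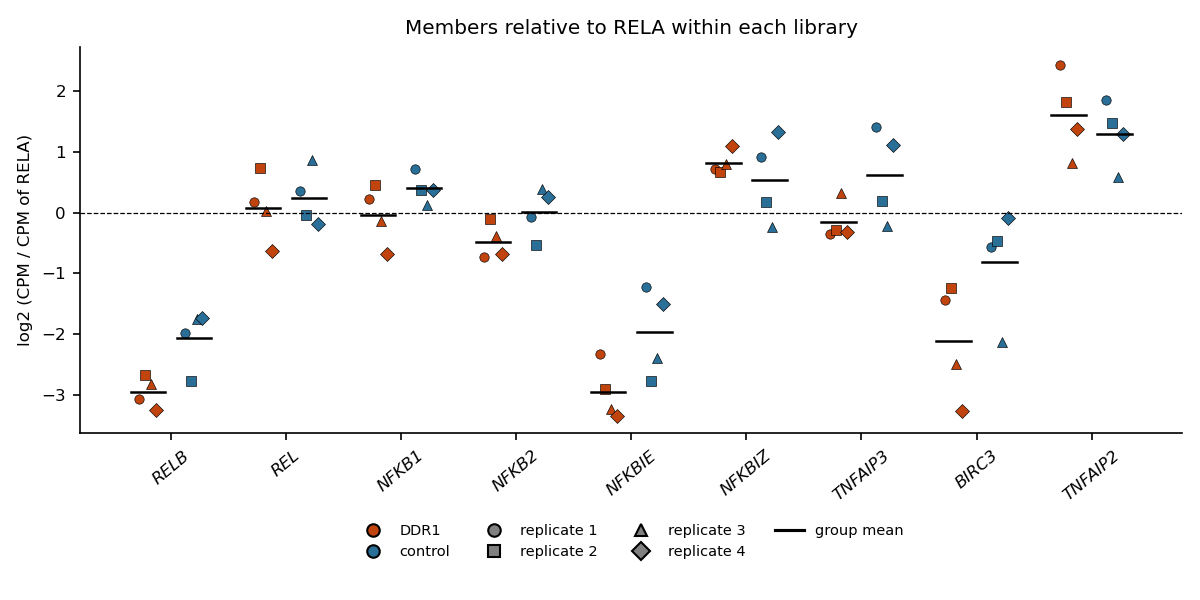
Log2 ratio of each of the other 9 members to RELA within each library, DDR1 left of control, with group means as lines. The RELB ratio lies between -3.25 and -2.67 in DDR1 libraries and between -2.77 and -1.74 in controls, so control replicate 2 overlaps with the DDR1 group.

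To compare levels between members, CPM was divided by the length of each gene's merged exons in GENCODE 29, which ran from 2.58 kb for NFKBIE to 13.17 kb for REL. TNFAIP2 was the highest member in all 8 libraries, at 32.8 ± 10.9 CPM per kb in the DDR1 group and 26.9 ± 8.99 in controls (SD, n = 4 each). NFKBIZ, TNFAIP3, NFKB2, RELA and NFKB1 formed a middle tier that filled ranks 2 to 6 in every library, with means over 8 libraries from 15.2 to 9.59 CPM per kb. Neighbours in that tier overlapped, and the means of RELA and NFKB1, at 9.60 and 9.59 CPM per kb, could not be ranked. REL, NFKBIE, RELB and BIRC3 filled ranks 7 to 10 in every library, with means of 4.53, 4.08, 3.22 and 3.07 CPM per kb and overlapping ranges. The largest step between neighbours outside TNFAIP2 was thus the one between NFKB1 and REL. The level of REL per kb is least certain, because its merged exons may be longer than the transcripts these cells make.

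**Figure D4:**
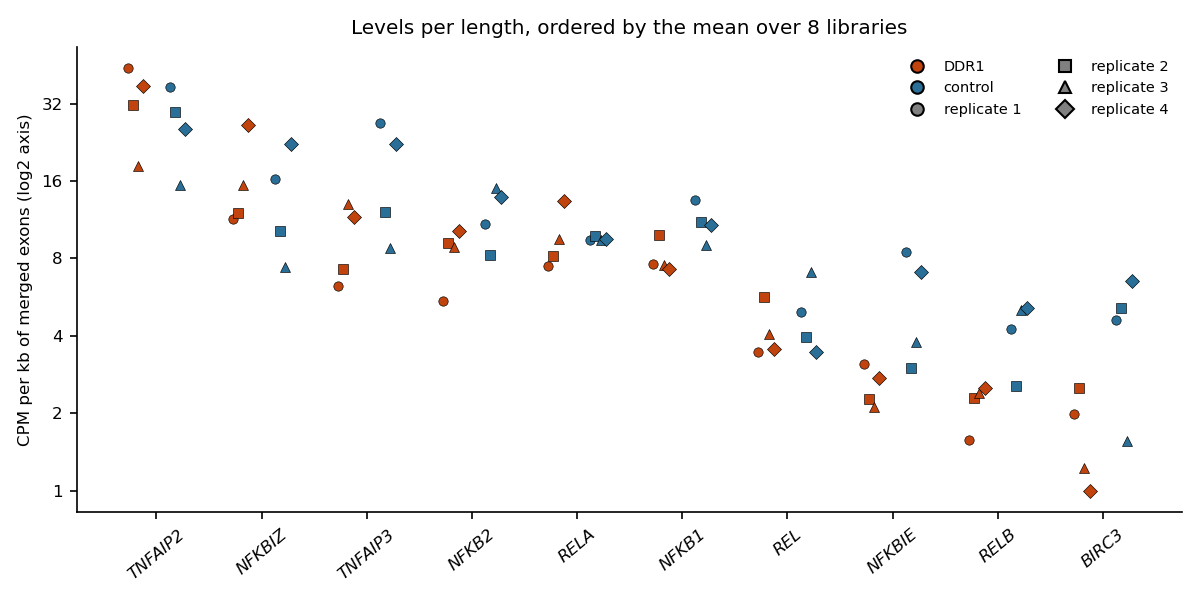
Level of each member per length, in CPM per kb of merged exons on a log2 axis, for each DDR1 library (left of each pair) and control library (right), ordered by the mean over 8 libraries. TNFAIP2 is highest, at 15.4 to 44.0 CPM per kb, and REL, NFKBIE, RELB and BIRC3 lie lowest in each library.

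Further lists place the members in the pathway: other inhibitors, kinases and adaptors, receptors, and targets. These lists too were chosen with earlier results of these data known, so their directions are no independent evidence. For the other inhibitors, 10 of 13 tested genes were lower in DDR1 tumours with a median log2 fold change of -0.26, where 50.5% of all tested genes were lower, and 0 had an unadjusted p under 0.05 in either direction. Leaving out DDR1 replicate 1 brought this median to -0.17, and leaving out the lane 7 controls to -0.06. NFKBIA, the classical I-kappa-B alpha, held 139 ± 62.4 CPM in the DDR1 group and 168 ± 55.9 CPM in controls (log2 fold change -0.27, SE 0.33). The deubiquitinase gene CYLD stood at -0.26 (SE 0.21), TNIP1, which encodes a partner of A20, at -0.20 (SE 0.28) and N4BP1 at -0.30 (SE 0.15).

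Among the kinases and adaptors, 19 of 29 were lower, with a median of -0.11 beside -0.003 for all genes, and an unadjusted p under 0.05 for 2 lower genes and 1 higher one, where 2.24% of all genes were lower and 1.93% higher at that threshold. The median was -0.03 without the lane 7 controls. The most abundant genes, IRAK1, BIRC2, TAB2 and RBCK1, had log2 fold changes of 0.10, -0.16, -0.15 and -0.29, all with an unadjusted edgeR p of 0.298 or more. The 3 with an unadjusted edgeR p under 0.05 were named after their values were seen. TRAF1, an adaptor at tumour necrosis factor receptors, held 6.72 to 8.79 CPM in DDR1 libraries and 10.1 to 19.4 CPM in controls, with no overlap, as for 1.13% of all genes with DDR1 lower (log2 fold change -1.0, SE 0.24, edgeR unadjusted p = 0.00228). IKBKE, a kinase related to the I-kappa-B kinases, stood at -0.82 (SE 0.29, unadjusted p = 0.0181), and RNF31, the catalytic part of the linear ubiquitin ligase, at 0.46 (SE 0.19, unadjusted p = 0.0353).

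Of 18 tested receptors, 12 were lower with a median of -0.22, and 4 of them had an unadjusted p under 0.05, beside 50.5% and 2.24% of all genes. These 4, named after their values were seen, were TLR3 (-1.09), TLR6 (-1.25), CD40 (-0.86) and NOD2 (-1.03), of which TLR6 and NOD2 had groups that did not overlap (1.13% of all genes, with DDR1 lower). CD40, a receptor that feeds the RELB and NFKB2 branch, held 57.4, 67.6, 62.6 and 46.1 CPM in DDR1 libraries, against 145, 76.6, 63.9 and 140 CPM in controls. Control replicate 3 lay within the DDR1 range, and controls 1 and 4 were high, as for NFKBIE and TNFAIP3. The 4 most abundant receptors were IL1RAP at 0.00 (SE 0.49), TNFRSF12A at -0.21 (SE 0.27), LTBR at 0.19 (SE 0.27) and TLR4 at -0.57 (SE 0.40).

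Of 30 targets, 28 were lower with a median of -0.71, and 11 had an unadjusted p under 0.05, all lower, beside 50.5% and 2.24% of all genes. The list was chosen with earlier results of these tumours known, so its direction is no independent evidence. Among the 4 most abundant targets, SOD2, mitochondrial superoxide dismutase, stood at -0.46 (SE 0.32), PLAU, urokinase, at -0.70 (SE 0.47), CCND1, cyclin D1, at 0.03 (SE 0.33) and VCAM1, an adhesion molecule, at -0.72 (SE 1.26). IL1B, the interleukin 1 beta gene, and CD83 were the targets that DESeq2 called (adjusted p = 0.0495 and 0.0337), while their edgeR adjusted p was 0.9998. Without the library labelled DDR1 replicate 1 the targets had a median of -0.39 and 9 lower genes at an unadjusted p under 0.05, beside 2.53% of all genes. Without the lane 7 controls the median was -0.42, with 5 such genes, beside 2.66% of all genes. The median was -1.08 without the controls that name no lane, with 11 such genes, beside 1.57% of all genes.

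**Figure D5:**
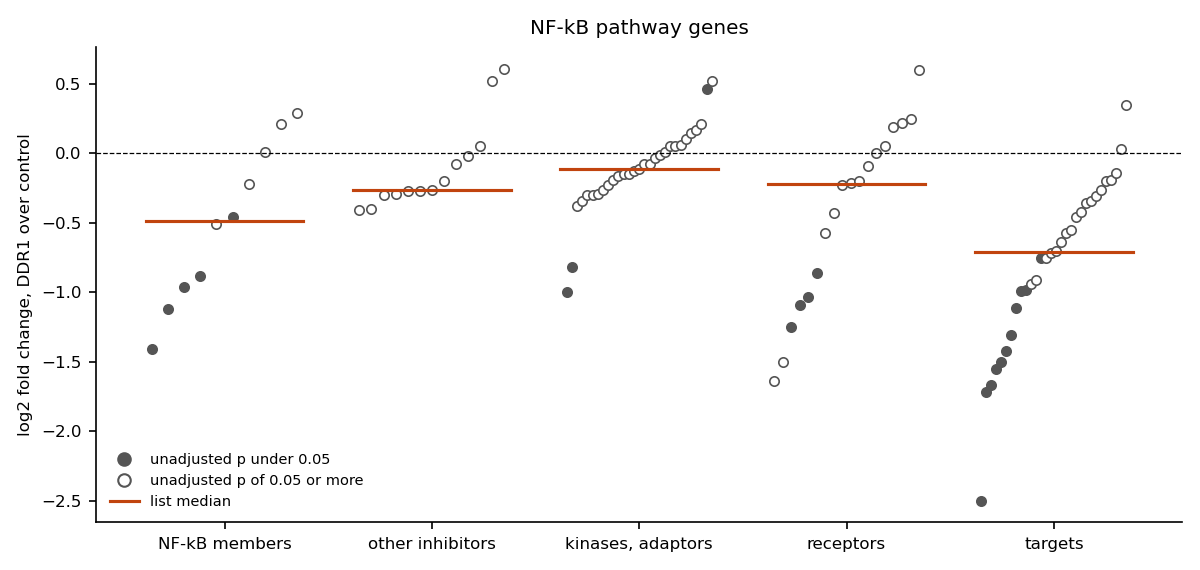
Log2 fold change, DDR1 over control, of every tested gene of the NF-kB members and of 4 further pathway lists, with filled points at an unadjusted edgeR p under 0.05 and lines at the list medians. The medians are -0.49 for the members, -0.26 for other inhibitors, -0.11 for kinases and adaptors, -0.22 for receptors and -0.71 for targets.

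Signs of RNA quality and library preparation were as follows. The 13 mitochondrially encoded genes summed to 14577 to 19553 CPM in DDR1 libraries and 9743 to 21234 CPM in controls, with a median log2 fold change of 0.21. The 12 immediate early and handling genes summed to 611 to 1418 CPM in DDR1 libraries and 633 to 1078 CPM in controls, with a median of 0.27. The RNA polymerase III transcripts summed to 72670 to 97735 CPM in DDR1 libraries and 63863 to 154009 CPM in controls, with a median of -0.33 over 8 tested, of which 5 were lower and RN7SL1 had an unadjusted p under 0.05. Their part in the members' levels was not tested.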

How the data were processed

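RNA came from homogenised tumours, with poly-T selection and paired reads of 150 bp, per the labels' protocols. RSEM 1.3.1, STAR 2.7.5, Trim Galore 0.6.4 and FastQC 0.11.9 with build GRCh38 are named, per the submitters' processing notes. The annotation release, the strand setting and any removal of mouse reads were not given in the sources used here. The authors deposited expected counts from RSEM, which were rounded here, and TMM-normalized values on a log2 scale, used as they stand in 1 alternative. Gene identifiers were matched to GENCODE 29, and 58039 of 58302 matched.

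Genes were kept by filterByExpr (minimum count 10), which left 18973, with TMM scaling. DDR1 was tested against control by quasi-likelihood in edgeR (R 4.3.3 with edgeR 4.0.16, DESeq2 1.42.0 and limma 3.58.1) over 8 libraries with no covariate, with Benjamini-Hochberg adjustment over all genes. A prior count of 2 entered log2 CPM. The script was tested on simulated data with independent libraries and changes larger than that of any member. That test therefore does not show how well changes of the members' size are found. Replicate numbers follow accession order and only name a library. Libraries of a group all differed beyond counting error (chi-square over its degrees of freedom at least 36.7). Counting error at the lowest member count was 8.6%. The members and lists were chosen with earlier results of these data known. The rule for named genes took the 10 members, DDR1, the 4 most abundant genes of each further list, list members called by edgeR or DESeq2, and the 3 genes most like RELA and RELB, of which 1 is not reported here; other genes were named after their values were seen. Alternatives covered scaling, filters, other tests and left-out libraries.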

Additional observations from a re-analysis of the deposited data

Results flagged for a closer look

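In the DDR1 group, 1 library stood apart from the other 3 for NFKB1, where DDR1 replicate 2 at 61.6 CPM lay above 45.4 to 47.7 CPM; its gap was 0.859 of the group's range. For the log2 ratio of TNFAIP3 to RELA, DDR1 replicate 3 at 0.33 lay above -0.36 to -0.28, a gap of 0.879 of the range. Both gaps passed the critical value of Dixon's test for 4 libraries, which chance passes in about 1 of 20 groups; 40 groups were checked.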

How the results depend on the processing

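No gene passed an adjusted p under 0.05 in any edgeR or limma fit, and DESeq2 called 16. At an unadjusted p under 0.05, 791 genes passed in edgeR. The count of 5 lower members was 4 or 5 under other scalings, filters and tests, 3 to 6 with 1 library left out, 3 without the lane 7 controls and 3 after summing libraries by title prefix. These are not always the same genes: without the lane 7 controls BIRC3, NFKB1 and TNFAIP3 were lost and NFKB2 was gained, leaving 2 shared, and summing lost NFKB1 and NFKBIE. NFKB2 was also gained without control replicate 2 and without DDR1 replicate 4. Beside these counts, the share of all genes lower at that threshold was 2.24% in the main fit. It was 2.02% to 2.51% under other scalings, filters and tests, and 1.26% to 3.19% with 1 library left out. The share was 2.66% without the lane 7 controls and 1.52% after summing libraries by title prefix. The members' median log2 fold change stayed between -0.56 and -0.39. The DDR1 gene, at 1.52 in all 8 libraries, stood at 1.31 without the lane 7 controls (unadjusted p = 0.0653). The count of ratios to RELA with a permutation p under 0.05 was 0 or 1 with 1 library left out. The 1 was RELB without control replicate 2, the only control that overlapped with the DDR1 group. Among the further lists, alternatives added after seeing the data moved the count of lower genes at an unadjusted p under 0.05. Without the lane 7 controls it was 4 for kinases and adaptors, 2 for receptors and 5 for targets, beside 2.66% of all genes. Without the controls of no named lane it was 1 for kinases and adaptors and 1 for receptors, beside 1.57% of all genes. Without DDR1 replicate 1 it was 2 for receptors, beside 2.53% of all genes. The cause was not tested.

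Some directions turned. RELA was -0.03 with limma-voom, -0.01 with limma-trend on the deposited values, -0.13 with prefixes summed and -0.18 to 0.12 with 1 library left out. CCND1 was -0.04, -0.02 and -0.07 in the same 3 fits and -0.16 to 0.21 with 1 library left out. LTBR was -0.05 with prefixes summed. Without the lane 7 controls NFKBIA was 0.06, BIRC2 0.02 and VCAM1 0.29. Without the controls of no named lane TNFAIP2 was -0.02 and RBCK1 0.18. With 1 library left out, REL ran from -0.40 to 0.02, NFKBIZ from -0.11 to 0.53 and IRAK1 from -0.05 to 0.24, and the REL ratio to RELA reached 0.07. No paired analysis was possible because the labels give no replicate numbers shared between groups.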
